A study of Mus musculus with 2 samples.

Results

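Mature sequences of 6 mouse miRNA genes that are known from liver and muscle, Mir122, Mir1a-1, Mir1a-2, Mir206, Mir133a-1 and Mir133a-2, were followed in small RNA libraries of dendritic cells, out of 2201 miRNA hairpin genes in the annotation. They were chosen with their nuclear and cytoplasmic values known, so the difference between the libraries is described here and not tested. A row of the deposited table belonged to a gene when all of its letters, or all but up to 3 at the 3′ end, lay in the sense strand of the gene's hairpin. The pellet that held the nuclei after lysis with the detergent NP40 was set against the cytoplasmic fraction, with 1 library of each, and the table's columns were tied to the fractions by the last letter of their names. Both came from bone marrow cells of C57BL/6 mice, cultured over 7 days with GM-CSF, IL-4 and 10% serum (FBS) and then given LPS, a component of bacterial outer membranes, so that both libraries come from LPS-treated cells. For the number of mice and for the dose and duration of LPS, nothing is stated in the labels. The nuclear library held 2000019 reads and the cytoplasmic library 2041383. This makes 1 nuclear read worth 0.50 RPM (reads scaled to the library total) and 1 cytoplasmic read 0.490 RPM. miRNA reads made up 40.6% of the nuclear and 74.8% of the cytoplasmic reads. A ratio of RPM thus compares shares of libraries of unlike make-up and not amounts per cell.

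A miRNA is cut from a hairpin precursor in successive steps, first by Drosha in the nucleus and then by Dicer in the cytoplasm, and 1 of the arms of the duplex is kept in an Argonaute protein. Bases 2 to 8 of the kept arm form the seed, which pairs with target mRNAs. miR-122 is the main miRNA of hepatocytes, where it affects cholesterol and lipid metabolism and is a host factor for hepatitis C virus. miR-1, miR-133 and miR-206 are the myomiRs: miR-1 and miR-133 are made from shared transcripts in heart and skeletal muscle, and miR-206 is a miRNA of skeletal muscle.

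The mature sequences below, from RefSeq (GRCm38.p6), show the kinship of the muscle miRNAs. Capitals mark the seed, which miR-1a-3p has in common with miR-206-3p: the commonest miR-1a-3p sequence in the table carries GGAAUGU at bases 2 to 8. The 5p arms are shown because their reads, given below, tell how far the passenger strands were present.
miR-206-3p: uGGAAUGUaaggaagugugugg
miR-206-5p: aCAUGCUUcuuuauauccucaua
miR-1a-1-5p: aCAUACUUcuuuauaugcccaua

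The 6 hairpins took 33 distinct sequences, with 428 nuclear and 42 cytoplasmic reads. This was 0.0527% of nuclear and 0.00275% of cytoplasmic miRNA reads. Of the 8 arms, 4 had reads, and 2 had at least 50 reads over both libraries, the minimum used for all arms. In material of many cells, a few cells with much of an RNA and many cells with little of it cannot be told apart.

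Mir206 lies on chromosome 1 (20679010 to 20679082, plus strand, GRCm38), and its 3p arm covers 20679055 to 20679076. Mir1a-1 (180389048 to 180389124) and Mir133a-2 (180398379 to 180398482) lie on the plus strand of chromosome 2. Mir122, Mir1a-2 and Mir133a-1 lie on chromosome 18. The copies could not be told apart: all 12 sequences matched to Mir1a-1 also matched Mir1a-2, and the only sequence of Mir133a-1 also matched Mir133a-2. Mir122 and Mir206 shared no sequence with another hairpin.

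miR-122-5p was the most abundant of these arms, with 287 nuclear reads (143 RPM) against 24 cytoplasmic reads (11.8 RPM). Its level was 12.2-fold higher in the nuclear library (95% interval 8.04 to 19.4), a log2 ratio of 3.58. With other scalings the ratio was 7.72 (median of ratios) and 22.5 (total of miRNA reads). By level it stood at place 86 among the arms of the nuclear library and at place 226 in the cytoplasmic library. The other arm of the hairpin, miR-122-3p, had no read in either library. The exact 95% intervals of its level reach 1.84 nuclear RPM and 1.81 cytoplasmic RPM.

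miR-1a-3p, which restrains proliferation in developing muscle, had 108 nuclear reads (54.0 RPM) against 7 cytoplasmic reads (3.43 RPM). The nuclear level was 15.7-fold higher (7.39 to 40.1), a log2 ratio of 3.88. This was 9.95-fold under the median of ratios and 29.1-fold under the total of miRNA reads. No read of miR-1a-5p was found in either library, and the printed miR-1a-1-5p sequence was absent from the table.

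miR-206-3p had 31 nuclear reads (15.5 RPM) against 11 cytoplasmic reads (5.39 RPM), below the minimum of 50 reads. The nuclear level was 2.88-fold higher (1.41 to 6.34), and this interval did not overlap that of miR-122-5p. Its call was lost under TMM factors (ratio 1.97, 0.962 to 4.34) and under the median of ratios (1.82, 0.889 to 4.01). miR-133a-3p had 2 nuclear reads and no cytoplasmic read, too few for a ratio. miR-133a is transcribed together with miR-1a in muscle, and here it had 2 nuclear reads beside 108 of miR-1a-3p. The reason for this difference was not tested. miR-206-5p and miR-133a-5p had no read.

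**Figure D1:**
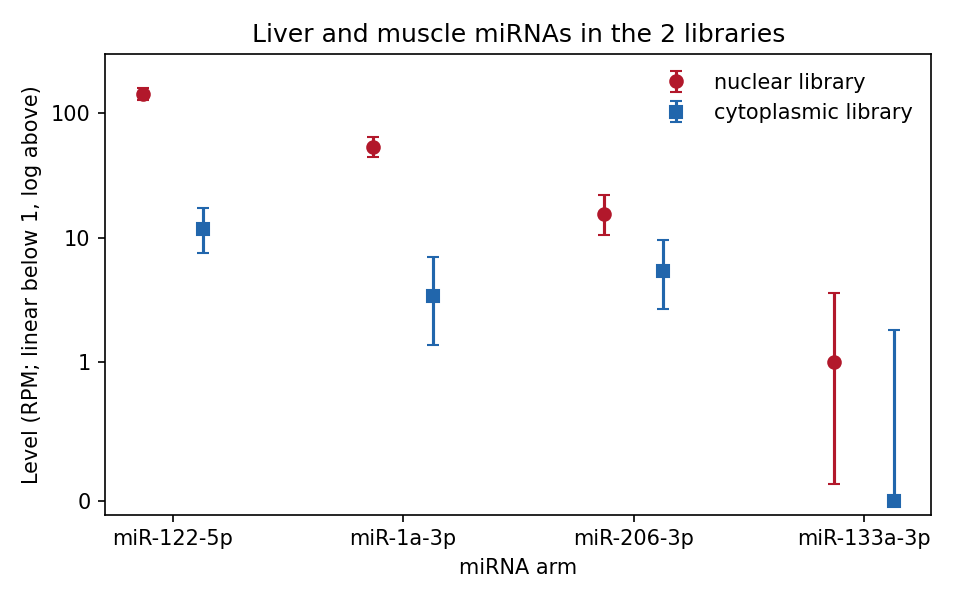
Level in RPM (linear below 1, log above) of the 4 arms with reads, with the nuclear library as circles and the cytoplasmic library as squares; bars are exact 95% Poisson intervals that cover counting error only. The nuclear values of miR-122-5p (143 RPM) and miR-1a-3p (54.0 RPM) lie well above the cytoplasmic values (11.8 and 3.43 RPM), and those of miR-133a-3p rest on 2 reads.

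Both arms that reached 50 reads were called higher in the nuclear library. Among all 245 miRNA arms with that many reads 19.2% were called higher and 26.1% lower (2-fold with an interval that excludes 1), and the median log2 ratio was -0.57. The 245 arms come from any hairpin annotated as miRNA, including Snord43, named as a small nucleolar RNA, and hairpins with only a Gm number. Among 973 small RNAs and transcript fragments 42.7% were called higher and 11.3% lower, with a median of 0.67. Since the genes were chosen on this ratio, nothing is read from the count. By ratio miR-1a-3p ranked 11 and miR-122-5p ranked 15 of the 245 arms.

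**Figure D2:**
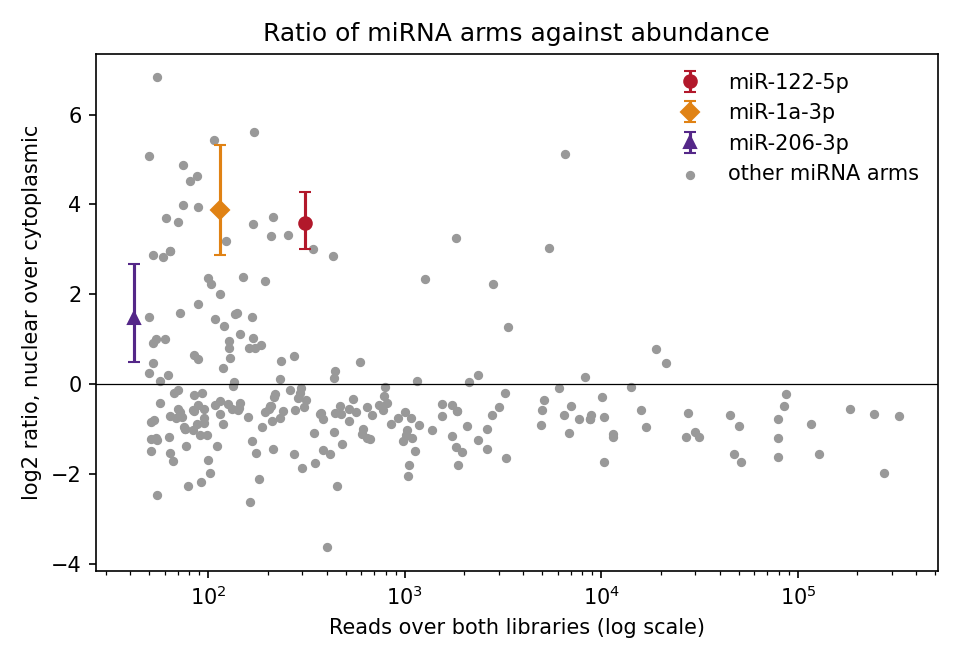
The log2 ratio, nuclear over cytoplasmic, of 245 miRNA arms (grey) against reads over both libraries on a log scale, with miR-122-5p, miR-1a-3p and miR-206-3p in colour; bars are exact 95% intervals of the ratio. miR-122-5p (3.58) and miR-1a-3p (3.88) lie far above the median of all arms (-0.57), among few others.

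The 5 nearest to miR-122-5p were the 3p arm of Gm26318 (log2 ratio 3.60), that of mmu-mir-3535 (3.56), the 5p arm of Gm25035 (3.71), miR-3470a-5p (3.72) and miR-1934-3p (3.32). The 5 nearest to miR-1a-3p were the 5p arm of mmu-mir-3535 (3.95), miR-1949-3p (4.0), and again miR-3470a-5p, Gm25035 and Gm26318. This likeness rests on 2 libraries, the same that were known when the genes were chosen. Among the rows matched by the rule, 92.7% of miR-122-5p nuclear reads (89.0 to 95.4) began at the 5′ end of the commonest sequence, and in miR-1a-3p 93.5% (87.1 to 97.4). In the 13 other arms ranked above miR-122-5p this share lay between 16.7% and 85.5%, with a median of 38.1%. They include both arms of Snord43, which carries the name of a small nucleolar RNA, and arms of hairpins with only a Gm number. For miR-122-5p this order depended on the matching rule. With rows that carry up to 6 unmatched 5′ bases counted in, a choice made after the values were seen, 266 of its 1650 nuclear reads, or 16.1% (14.4 to 17.99), began there. The same count gave 90.2% (83.1 to 94.99) in miR-1a-3p and 16.3% to 83.5% in the 13 arms, so miR-122-5p then lay at the lower end of their range, with the lowest of them inside its interval. Among matched rows, 95.5% of miR-122-5p and 95.4% of miR-1a-3p nuclear reads were of 20 to 24 nt, against a median of 55.4% in the 13 arms. Arms cut by Drosha and Dicer usually have a fixed 5′ end, and over all 245 arms the median share was 97.3%.

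**Figure D3:**
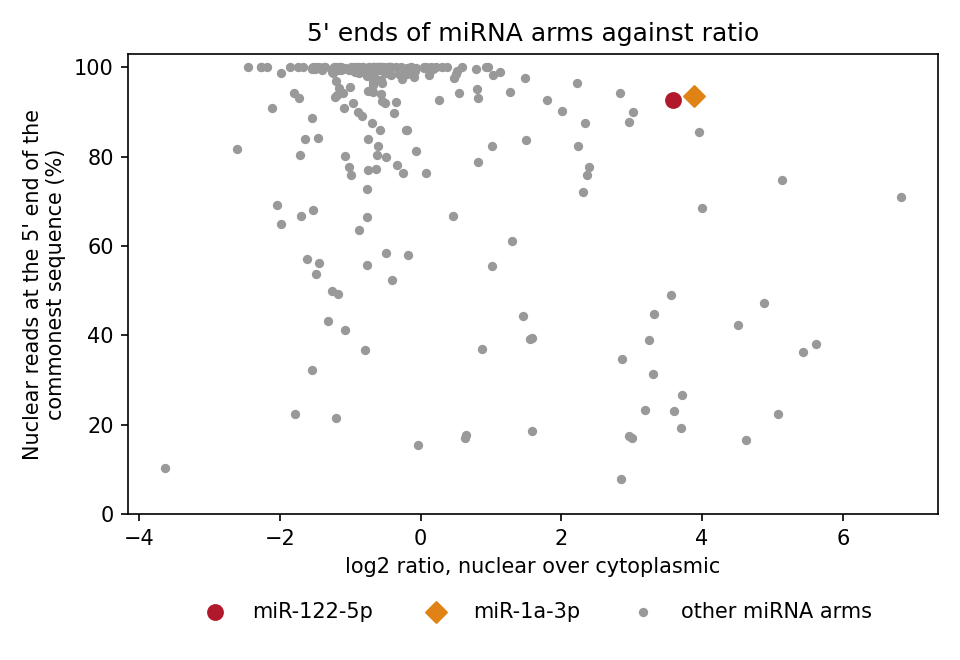
Share of an arm's nuclear reads that begin at the 5′ end of its commonest sequence (%) against the log2 ratio, nuclear over cytoplasmic, for 245 miRNA arms, from the rows matched by the rule. Among these rows miR-122-5p (92.7%) and miR-1a-3p (93.5%) stand above the 13 other arms ranked higher than miR-122-5p by ratio, which reach at most 85.5%; with rows of unmatched 5′ bases counted in, miR-122-5p was at 16.1%.

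The length and end variants were then set beside those of the 20 most abundant miRNA arms of the nuclear library, which the choice of genes did not use. let-7f-5p, let-7a-5p, let-7c-5p and miR-21a-5p lead these arms. They are miRNAs that most cells, myeloid cells included, carry at high levels.

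Among the matched rows, miR-122-5p was mostly of a single length. A single sequence of 22 nt held 230 of its 287 nuclear reads, or 80.1% (75.0 to 84.6), and 15 of its 24 cytoplasmic reads, or 62.5% (40.6 to 81.2). Of the 20 abundant arms 19 had a lower nuclear share, with a median of 44.8%, and the exception was miR-29a-3p at 88.2%. With rows of unmatched 5′ bases counted in, this sequence held 13.9% of 1650 nuclear reads (12.3 to 15.7) and all reads of 22 nt 19.6% (17.7 to 21.6), below each of the 20 abundant arms counted in the same way. The next miR-122-5p sequence was 1 base shorter at the 3′ end and had 18 nuclear and 2 cytoplasmic reads. Reads with a matched 3′ end shorter than the commonest made up 9.76% of the nuclear reads (6.58 to 13.8), against a median of 15.6% of abundant arms. At 100 reads the expected number of distinct sequences was 8.99 for miR-122-5p, and for abundant arms it ranged from 7.47 to 18.6.

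Unmatched 3′ bases were rare on the matched rows of miR-122-5p. They were on 3.83% of nuclear reads (1.93 to 6.75), against 4.01% to 40.2% in the 20 abundant arms. Unmatched A alone was on 0.348% (0.00882 to 1.93), or 1 read, against a median of 11.1% and a lowest value of 1.67% in abundant arms. A terminal adenine is known on miR-122 in liver, where the poly(A) polymerase GLD-2 adds it. In the cytoplasmic library 1 of 24 reads carried such an A. No nuclear read and 2 cytoplasmic reads ran 1 base further along the hairpin.

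Among the matched rows, the 5′ end of miR-122-5p was less uniform than that of most abundant arms. Of the 20 abundant arms 19 had a higher share of nuclear reads at their commonest 5′ end than its 92.7%, with a median of 99.5%, and miR-140-3p was lower at 57.1%. The remaining 21 matched nuclear reads of miR-122-5p began 2 or 3 bases downstream, so that the seed of those molecules is shifted. The largest such sequence had 12 nuclear and no cytoplasmic reads. With rows of unmatched 5′ bases counted in, the share of miR-122-5p fell to 16.1%. That was below each of the 20 abundant arms counted in the same way, of which the lowest was at 56.8%.

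Among the matched rows, miR-1a-3p was more varied at the 3′ end. Its commonest sequence, of 22 nt, held 54 of 108 nuclear reads, or 50% (40.2 to 59.8), and 5 of 7 cytoplasmic reads. The sequence 1 base shorter had 12 nuclear and 1 cytoplasmic reads. Its commonest length took 68.5% of nuclear reads (58.9 to 77.1), a share that 3 of the 20 abundant arms exceeded. Unmatched 3′ bases were on 25.9% of its nuclear reads (18 to 35.2), near the upper part of the abundant arms, of which 4 were higher. These shares leave out rows with 1 internal substitution, described below, which had 134 nuclear reads beside the 108 matched ones. With those rows counted in, the commonest sequence would hold a smaller share than 50%.

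The letters of these ends set miR-1a-3p apart from most abundant arms. Unmatched ends other than A alone or T alone were on 21.3% of matched nuclear reads (14.0 to 30.2), against a median of 3.20% in abundant arms. miR-146b-5p, the highest of those, was at 21.3% as well, and all others were at 9.57% or below. A sequence ending in an unmatched GA had 12 nuclear reads and one ending in GAG had 7, and neither had a cytoplasmic read. Both left the hairpin after the same base, as did a sequence of 20 nt ending in G, with 1 nuclear and 1 cytoplasmic read. These ends thus form a nested series, and its origin was not tested. Unmatched A alone was on 4.63% of nuclear reads (1.52 to 10.5). A further 6 nuclear reads began 1 base upstream within the hairpin, and none did in the cytoplasmic library.

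miR-206-3p showed little variation at its low depth. The sequence printed above had 28 of the 31 nuclear and 7 of the 11 cytoplasmic reads. The remaining 3 nuclear reads were 2 with an unmatched T at the 3′ end and 1 that was shorter by 1 base. The 2 reads of miR-133a-3p were of a single sequence of 22 nt.

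**Figure D4:**
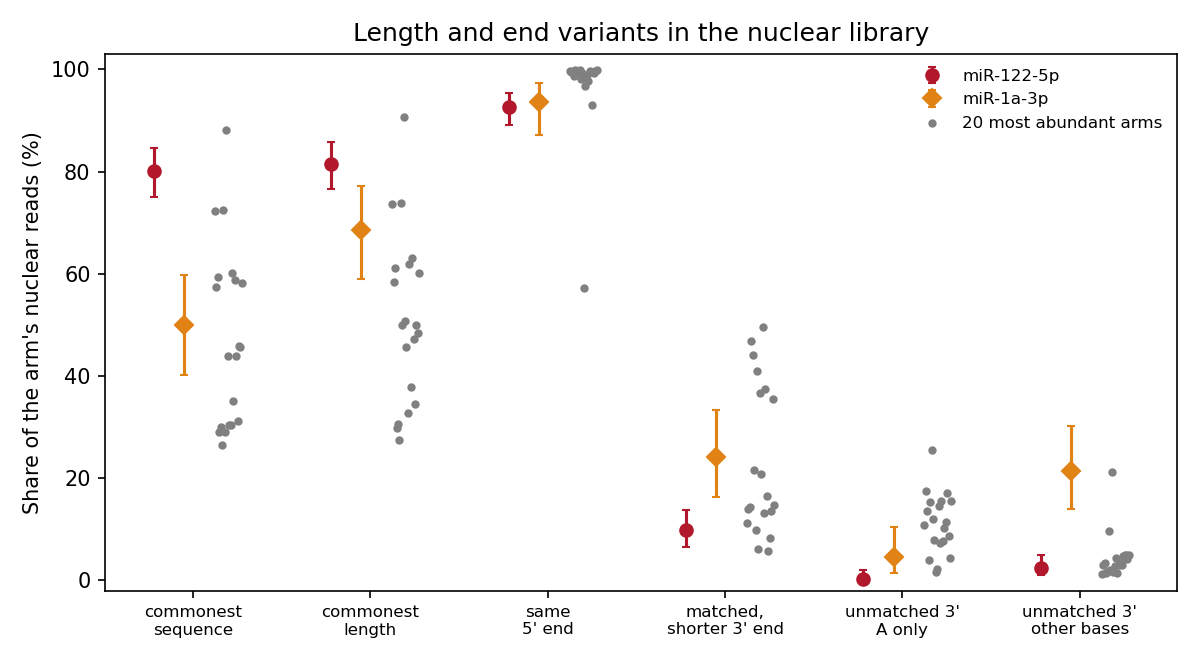
Share of an arm's nuclear reads (%) in the commonest sequence, at the commonest length, at the commonest 5′ end, with a shorter matched 3′ end, with unmatched 3′ A only and with other unmatched 3′ bases, from the rows matched by the rule, for miR-122-5p and miR-1a-3p (bars: exact 95% binomial intervals) and for the 20 most abundant arms (grey points). miR-122-5p lies high for its commonest sequence (80.1%) and low for 3′ A (0.348%), and miR-1a-3p lies high for other unmatched bases (21.3%).

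For miR-122-5p and miR-1a-3p, rows just outside the matching rule held more nuclear reads than the rows inside it. These rows were looked for after the values were seen, with limits of 6 unmatched 5′ bases or 1 internal substitution, and a row found in any annotated transcript was left out. Rows with 1 to 6 unmatched bases ahead of a miR-122-5p stretch had 1363 nuclear and 88 cytoplasmic reads. In 1310 nuclear and 86 cytoplasmic reads of these, spread over 45 sequences, the added bases were A alone. One added A had 607 nuclear and 37 cytoplasmic reads, and 2 had 469 and 26. Runs of 3 added A had 184 nuclear and 17 cytoplasmic reads, runs of 4 had 44 and 5, and runs of 5 had 6 and 1. The reads thus formed a series that peaked at 1 added A in both libraries, and each of its steps up to 4 added A was higher in the nuclear library. Added A alone was 15.5-fold higher there (12.5 to 19.6), and the matched miR-122-5p rows were 12.2-fold higher (8.04 to 19.4), so the intervals overlapped.

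Rows with unmatched 5′ bases made up 82.6% (80.7 to 84.4) of nuclear and 78.6% (69.8 to 85.8) of cytoplasmic reads of miR-122-5p, matched and unmatched together. Added A alone was 79.4% of the nuclear sum (77.4 to 81.3). In the 20 abundant arms the share of rows with unmatched 5′ bases lay between 0.299% and 1.84% in the nuclear library, and that of A alone reached at most 0.228%, in miR-155-5p. Among the 243 measured arms other than miR-122-5p and miR-1a-3p, miR-5126-3p had a slightly higher share of unmatched 5′ bases (83.3%), none of them A alone. The highest share of A alone was 25%, in miR-5114-5p, and miR-6240-5p had 730 such nuclear reads beside 2344 matched ones. The 3′ ends of both kinds of miR-122-5p row were alike: 83.3% of nuclear reads with added A (81.1 to 85.3) ended where the commonest sequence ends, and 86.5% (81.8 to 90.3) of matched reads from the commonest 5′ end did. With the unmatched 5′ bases included, miR-122-5p had 1650 nuclear (825 RPM) and 112 cytoplasmic reads (54.9 RPM), a nuclear level 15.04-fold higher (12.4 to 18.4). The source of the added bases was not tested.

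**Figure D5:**
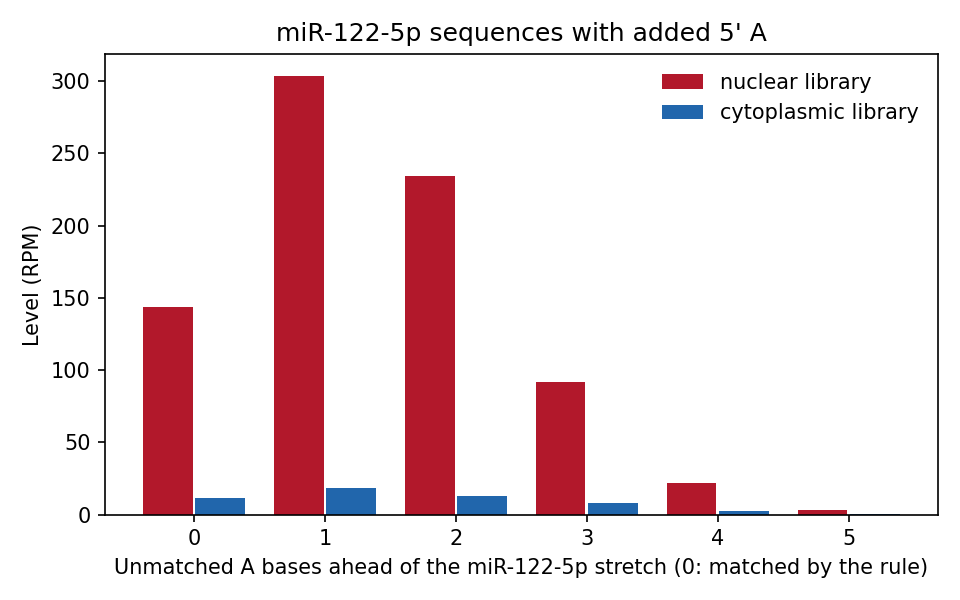
Level in RPM of miR-122-5p rows by the number of unmatched A bases ahead of the matching stretch, with the nuclear library left and the cytoplasmic library right at each step; 0 marks the rows matched by the rule. One added A (303 RPM nuclear, 18.1 RPM cytoplasmic) and 2 added A (234 and 12.7 RPM) exceed the matched rows (143 and 11.8 RPM) in both libraries.

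For miR-1a-3p a single substitution stood out. Rows with A17G, counted from 1 at the 5′ end of the commonest miR-1a-3p sequence with the hairpin's base first, had 131 nuclear and no cytoplasmic reads over 3 sequences. This was at least 44.6-fold higher in the nuclear library, against a floor of 3 reads per library, a value that leaves out counting error. The exact 95% interval of the ratio itself began at 35.7. Of the nuclear sum of miR-1a-3p and these rows, A17G made up 54.8% (48.3 to 61.2). In the 20 abundant arms the commonest single internal substitution made up 0.206% to 0.856%, the highest being T16G in miR-185-5p. All rows with 1 internal substitution together were 55.4% for miR-1a-3p (48.9 to 61.7) and 9.18% for miR-122-5p (6.23 to 12.9), against 2.10% to 4.58% in abundant arms. No such row was found for miR-206-3p. Beside 7 cytoplasmic reads of miR-1a-3p, the absence of A17G there leaves a level of up to 1.81 RPM possible (exact 95% interval for no read). Position 17 lies outside the seed, and the miR-206-3p sequence printed above has G at its base 17. The origin of these rows was not tested.

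The miRNAs listed here for the same tissues did not share these ratios throughout. Of 6 miRNAs listed for liver, which are not all particular to it, 5 had reads, and miR-802 had none. Of their 4 arms with at least 50 reads, 1 (miR-122-5p) was higher and 2 were lower in nuclei. Their median log2 ratio was -0.93. Over all 245 miRNA arms with that many reads, 19.2% were higher and 26.1% lower, and the median was -0.57. miR-192-5p, also abundant in gut and kidney, had 2378 nuclear and 7992 cytoplasmic reads, a log2 ratio of -1.72. miR-194-5p, its partner in a shared transcript, had 56 and 156 reads (-1.44), and miR-455-3p had 61 and 83 reads (-0.41). Below the minimum, miR-193b-3p ran the same way as miR-122-5p, with 18 nuclear and 3 cytoplasmic reads and a ratio of 6.12 (1.79 to 32.5). miR-193b-5p had 23 and 13 reads, a ratio of 1.81 (0.877 to 3.88). Summed, the liver list had 1416 nuclear RPM and 4061 cytoplasmic RPM, of which miR-192-5p alone held 1189 and 3915 RPM.

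Of 8 muscle miRNAs, 5 had reads, and miR-133b, miR-208a and miR-208b had none. Their sum was 73.5 nuclear RPM and 18.1 cytoplasmic RPM, and miR-1a-3p was the only arm with at least 50 reads. miR-499-5p, made from a myosin gene of heart and slow muscle, had 6 nuclear and 17 cytoplasmic reads, with a ratio of 0.360 (0.116 to 0.958), opposite to miR-1a-3p. miR-1b, encoded on the other strand at Mir1a-2, had no nuclear read and 1 cytoplasmic read on each arm.

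The miRNAs listed for dendritic or other myeloid cells were in sum far more abundant than the liver or the muscle list. All 7 of them had reads, with a sum of 36509 nuclear RPM and 118689 cytoplasmic RPM. Most of this sum was miR-21a-5p, which most cells carry, with 27381 nuclear RPM and 108223 cytoplasmic RPM. Of the 11 measured arms of this list 5 were lower in nuclei and 0 higher (median log2 ratio -0.76). Among all 245 measured miRNA arms 26.1% were lower and 19.2% higher, with a median of -0.57. The lists hold few arms, and nothing about a cell type is read from their counts. Of the lists for other cell types, red cells had 18 nuclear and 21 cytoplasmic reads over 3 arms, with miR-451a at 0 and 2 reads, and endothelium had 7 and 2 reads. The nervous system list had 4 measured arms, of which 0 were higher and 3 lower (median -1.01), the pancreas or endocrine list 1, which was neither (-0.57), and the epithelium list 3, of which 0 were higher and 1 lower (-0.81). The stroma or smooth muscle list had 3 measured arms (median 0.93), of which miR-143-3p was higher with 99 nuclear and 46 cytoplasmic reads. Below the minimum, miR-214-3p ran the same way, with 24 and 8 reads and a ratio of 3.06 (1.33 to 7.88). miR-199a-5p had 4 and 6 reads, a ratio of 0.680 (0.141 to 2.87). Whether RNA of other cells had a part in the reads of the liver and muscle genes was not tested.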

How the data were processed

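Small RNAs of 1 nuclear and 1 cytoplasmic library were analysed from a single table of sequences. The authors deposited RPM, the reads of a sequence scaled to the reads listed in its library. CASAVA and build mm10 are named per the submitters' processing notes, and trimming, length limits, alignment and filters are not given in the labels or the table. The columns were assigned by their last letter, N or C. Values were whole multiples of 1 read within 0.1 read for 100% of values above 0, which gave back whole reads.

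Sequences were matched on the sense strand to GENCODE M21 hairpins (GRCm38), whole or without their last 1 to 3 bases, 18 nt being the shortest match allowed, and the 5p or 3p arm was set by the side of the hairpin. A sequence shared by several miRNAs was counted in the one with most reads of its own. For the background, other sequences were matched to all other GENCODE transcripts, and those in more than 10 long genes were left out. The log2 ratio, nuclear over cytoplasmic, used a pseudocount of 0.5 reads, which understates differences at low reads. An arm was called higher or lower when this ratio reached 2-fold and its exact 95% interval (Clopper-Pearson, conditional on the reads of both libraries) excluded 1. These intervals hold counting error alone: the reads carry no molecular identifiers, so PCR copies are counted as molecules. With 1 library in each group no test across samples was possible.

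Every arm of the hairpins chosen is named. The 20 arms with most nuclear reads served as the comparison for ends, and the 5 arms nearest in ratio to miR-122-5p and to miR-1a-3p were listed. The members and lists were chosen with earlier results of these data known. Matching and calling were tested on simulated data. Alternatives were TMM factors (edgeR 4.0.16), the median of ratios (DESeq2 1.42.0), the miRNA total, and stricter matching, length and read limits. Python 3.11.15, scipy 1.17.1 and R 4.3.3 were used.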

Additional observations from a re-analysis of the deposited data

How the results depend on the processing

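The ratios of miR-122-5p and miR-1a-3p kept their direction and call under every scaling, matching, length and read limit tried. For miR-1a-3p the scalings gave log2 ratios of 3.22 (median of ratios) to 4.77 (miRNA total). The log2 ratio of miR-122-5p was 2.92 under the median of ratios and 4.47 under scaling to the miRNA total, both outside its counting interval; these scalings move every arm alike. TMM factors shifted log2 ratios by -0.55 and the median of ratios by -0.66. The number of miRNA arms called higher was 47 of 245. It was 91 of 428 with a minimum of 10 reads, 104 of 994 with no minimum, and 14 of 158 with only the most abundant sequence of each arm, settings that change how many arms or reads enter. Chosen after seeing the data, adding rows with unmatched 5′ bases gave miR-122-5p a log2 ratio of 3.90 and lowered its share of nuclear reads at the commonest 5′ end to 16.1%, against 92.7% among matched rows, and adding rows with 1 substitution gave 3.66 for miR-122-5p and 5.04 for miR-1a-3p. With full-length matches only, the commonest sequence held 67.5% of the nuclear reads of miR-1a-3p. No paired analysis was possible because each group held 1 library. The 24 cytoplasmic reads of miR-122-5p and 7 of miR-1a-3p limit the precision of both ratios and of every cytoplasmic share.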
